A study of Mus musculus with 8 samples.

Results

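Netrins and their receptors of the DCC and UNC5 families were followed across the cells of the mouse optic nerve (ON). The set holds 8 genes, 2 netrin genes (*Ntn1*, *Ntng1*), the DCC family (*Dcc*, *Neo1*) and the UNC5 family (*Unc5a*, *Unc5b*, *Unc5c*, *Unc5d*), which were taken by symbol from the 33696 genes of the deposited matrices. Single-nucleus RNA sequencing (snRNA-seq), which counts unique molecular identifiers (UMIs) per gene and nucleus, was performed on ONs of female mice at P120. There were 8 libraries, 4 of Piezo2f/f controls without cre (replicates 1 to 4) and 4 of Olig2-cre;Piezo2f/f mice, called cKO (replicates 10 to 13), and each library pooled 6 ONs of 3 mice. Both genotypes carried the floxed *Piezo2* alleles, Piezo2 being a mechanically gated ion channel. Cre was expressed from the *Olig2* locus, so that the cKO mice also had a single intact *Olig2* allele, and recombination can take place in the whole oligodendrocyte (OL) lineage and in any other cell with *Olig2* in its history. The controls carried no cre, so that loss of *Piezo2* and the single *Olig2* allele cannot be told apart. A replicate is a pool of mice, and the p-values between genotypes measure the spread between pools. Between cell types or groups the library was part of the fit. Those p-values measure how far the differences vary from pool to pool.

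Netrin-1, the product of *Ntn1*, is a secreted, laminin-related guidance cue. DCC mediates attraction to it, UNC5 proteins mediate repulsion alone or together with DCC, and neogenin (*Neo1*), the paralog of DCC, also binds repulsive guidance molecules. DCC and UNC5 proteins are known as dependence receptors, which signal differently with and without ligand. Netrin-G1 (*Ntng1*) is anchored to the membrane and binds the adhesion protein encoded by *Lrrc4c* rather than DCC or UNC5 receptors. In the adult central nervous system netrin-1 and DCC are known from mature OLs, where they take part in keeping the paranodal junctions of myelin in order, and OL precursor cells (OPCs) use the same system in migration.

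After removal of low-quality barcodes and doublets, 3457 to 6215 nuclei per library remained, with a median of 2383 to 3314 UMIs. Clusters were named from marker genes, with the 8 genes and the pathway list below kept out of the clustering. OLs made up 51.3% of nuclei (19097), and there were 8106 astrocytes, 3367 fibroblasts, 1077 microglia, 774 OPCs, 511 neurons, 358 endothelial cells, 284 border-associated macrophages (BAMs), 91 committed OL precursors (COPs), 82 T cells and 62 mural cells. Each named type had all of its markers highest in that type, which is no separate check, since the names came from these markers. Of the neurons, 212 came from control library 3, which also held pituitary transcripts. The optic nerve has axons but no neuronal cell bodies of its own, and the study regards its neurons as probable carry-over of neighbouring brain tissue, so neuron values below may not describe cells of the nerve. Free RNA was present in all libraries, and the level that it would give, an estimate from empty droplets and markers of other types, is set beside some of the low values. *Olig2* in OLs was 30.7 ± 7.1 CPM (SD, n = 4) in control and 47.3 ± 4.1 CPM in cKO libraries, and *Piezo2* was 447 ± 59 and 540 ± 22 CPM. *Piezo2* UMIs are counted over the whole gene and do not single out the deleted exons. Both genes were higher, not lower, in libraries labelled cKO, so that neither gene checked the genotype labels.

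On GRCm39 *Ntn1* (ENSMUSG00000020902) spans chr11:68100190-68291662, *Ntng1* (ENSMUSG00000059857) chr3:109687356-110051327, *Neo1* (ENSMUSG00000032340) chr9:58781965-58944238, *Unc5a* (ENSMUSG00000025876) chr13:55096518-55153833, *Unc5b* (ENSMUSG00000020099) chr10:60598372-60667396, *Unc5c* (ENSMUSG00000059921) chr3:141170977-141540685 and *Unc5d* (ENSMUSG00000063626) chr8:29136745-29709664. *Unc5a* and *Unc5c* are on the plus strand and the other 5 of these on the minus strand. *Dcc* has the identifier ENSMUSG00000060534. *Neo1* overlaps *Gm47271* on the opposite strand, and the files gave 26487 UMIs to *Neo1* and 28688 to *Gm47271* over all nuclei. *Unc5a* likewise overlaps *Hk3* on the opposite strand, with 170 UMIs given to *Unc5a* and 183 to *Hk3*. *Ntn1* overlaps *Gm12305* on the same strand, with 4183 UMIs given to *Ntn1* and 41 to *Gm12305*. How reads in these overlaps were assigned was not checked.

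The start regions of *Unc5b* and *Unc5c* are shown because these were the UNC5 genes with the highest levels in OLs, the former, within the lineage, mainly in mature OLs and the latter present throughout the lineage. Each is 300 bases from 250 before to 50 after the gene start (RefSeq, GRCm38.p6; *Unc5c* chr3:141465314-141465613, plus strand; *Unc5b* chr10:60831532-60831831, minus strand), with CG pairs in capitals. Promoters were found in the table for 5 of the 8 genes.
Unc5c: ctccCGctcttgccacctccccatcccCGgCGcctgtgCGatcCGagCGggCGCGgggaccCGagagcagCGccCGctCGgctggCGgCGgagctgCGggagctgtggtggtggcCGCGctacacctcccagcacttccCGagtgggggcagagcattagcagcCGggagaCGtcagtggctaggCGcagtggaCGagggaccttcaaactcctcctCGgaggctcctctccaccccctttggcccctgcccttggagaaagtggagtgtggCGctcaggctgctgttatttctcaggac
Unc5b: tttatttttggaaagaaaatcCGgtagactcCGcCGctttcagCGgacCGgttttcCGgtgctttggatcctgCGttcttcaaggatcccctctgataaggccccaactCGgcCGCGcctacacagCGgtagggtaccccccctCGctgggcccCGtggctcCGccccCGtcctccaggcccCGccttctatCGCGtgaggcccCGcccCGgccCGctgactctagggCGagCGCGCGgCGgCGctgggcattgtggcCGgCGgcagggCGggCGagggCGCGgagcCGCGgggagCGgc
The *Unc5c* region held 24 CG pairs and the *Unc5b* region 36, against a median of 7 (quartiles 3 and 20) over 32851 promoters. The motif ACAAAG, a core of SOX binding sites, was in 18.7% of all promoters and CAGCTG, a form of the E-box, in 16.3%. On both strands, neither motif was found in either window, which says only that these letters are not within these 300 bases.

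Among the cell types with enough nuclei for tests, *Ntn1* was mainly a transcript of OPCs and fibroblasts and was all but absent from OLs. Among control libraries it was 354, 304, 321 and 349 CPM in OPCs, 268, 263, 174 and 265 CPM in fibroblasts, and 3.07, 3.95, 3.25 and 5.03 CPM in OLs. The 3 ranges did not overlap, and fibroblasts of control library 3 lay well below those of the other libraries. The OL level was close to the 3.21 CPM that free RNA would give, and empty droplets held 22.7 to 37.5 CPM of *Ntn1*, 4.94 to 8.14 times the OL level of the same library. Endothelial cells had 85.9 ± 50.3 CPM, BAMs 38.6 ± 41.8 CPM, neurons 23.7 ± 9.2 CPM, microglia 12.8 ± 5.9 CPM and astrocytes 5.42 ± 2.10 CPM (SD, n = 4; 5.18 and 3.34 CPM from free RNA in the last pair), and from endothelial cells downwards each range overlapped the next.

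Tests between cell types were made on counts summed per library and cell type in the 4 control libraries, with library as a block (edgeR quasi-likelihood test, Benjamini-Hochberg adjustment), and calls needed an adjusted p below 0.05 together with a change of more than 0.5 on the log2 scale in either direction. The SE given with an edgeR log2 fold change is its absolute value divided by the square root of the F statistic, not a fitted error. Against the mean of the other 7 types, *Ntn1* was higher in OPCs (log2 fold change 4.08 ± 0.18 SE, adjusted p = 4.66e-23) and fibroblasts (3.31 ± 0.15), and also higher in endothelial cells (1.76 ± 0.30, but 1.06 with an edgeR adjusted p of 0.0361 without control library 3). It was lower in OLs (-3.20 ± 0.30), astrocytes (-3.01 ± 0.31) and microglia (-1.76 ± 0.49, a call lost without control library 2 at an adjusted p of 0.0576). Between OLs and OPCs the difference was -6.37 ± 0.23 (edgeR adjusted p = 4.71e-26).

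Calls were frequent for all genes, since cell types differ widely. Of 10717 genes tested, 46.5% were called in OLs, 32.6% in OPCs, 41.8% in astrocytes, 39.4% in fibroblasts, 23.6% in endothelial cells, 38% in microglia, 30.4% in BAMs, 43.7% in neurons and 41.5% between OLs and OPCs. Of the 8 genes 7 passed the filter on low counts, *Unc5a* being the exception. Among these 7, 5 were higher and 1 lower in OLs, 4 higher in OPCs, 2 higher and 3 lower in astrocytes, 3 higher and 3 lower in fibroblasts, 3 higher and 1 lower in endothelial cells, 4 lower in microglia, 3 lower in BAMs and 5 higher in neurons, which gives 37 calls, and 31 to 34 with any 1 control library left out. The lower *Neo1* in endothelial cells (-0.57) was lost without the library block and without control library 1, 2 or 3. In astrocytes the calls of higher *Unc5c* and *Neo1* fell under the fold limit without control library 1 (0.44 and 0.43), as did that of *Unc5c* without control library 3 (0.41). The lower *Unc5b* in fibroblasts was lost after each nucleus was thinned to 1000 UMIs (-0.78). Between OLs and OPCs 2 genes were higher and 2 lower, where 20.1% and 21.4% of all genes were.

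*Ntng1* was found mainly in neurons and fibroblasts. Control neurons had 75.9, 96.7, 124 and 189 CPM and control fibroblasts 53.4, 56.1, 35.6 and 43.4 CPM, ranges that did not overlap, while BAMs had 4.82 ± 6.06 CPM, OPCs 2.93 ± 4.28 CPM, astrocytes 2.60 ± 1.83 CPM and OLs 0.816 ± 0.667 CPM (SD, n = 4). No UMI of *Ntng1* was found in control microglia or endothelial cells. It was higher in neurons by 6.37 ± 0.36 and in fibroblasts by 4.75 ± 0.39 (log2 against the mean of the other types, edgeR adjusted p = 9.82e-18 and 3.4e-13). These means include microglia and endothelial cells without an *Ntng1* UMI, so the values are no bounds. For the same reason this fit could not have called *Ntng1* lower in any type.

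**Figure D1:**
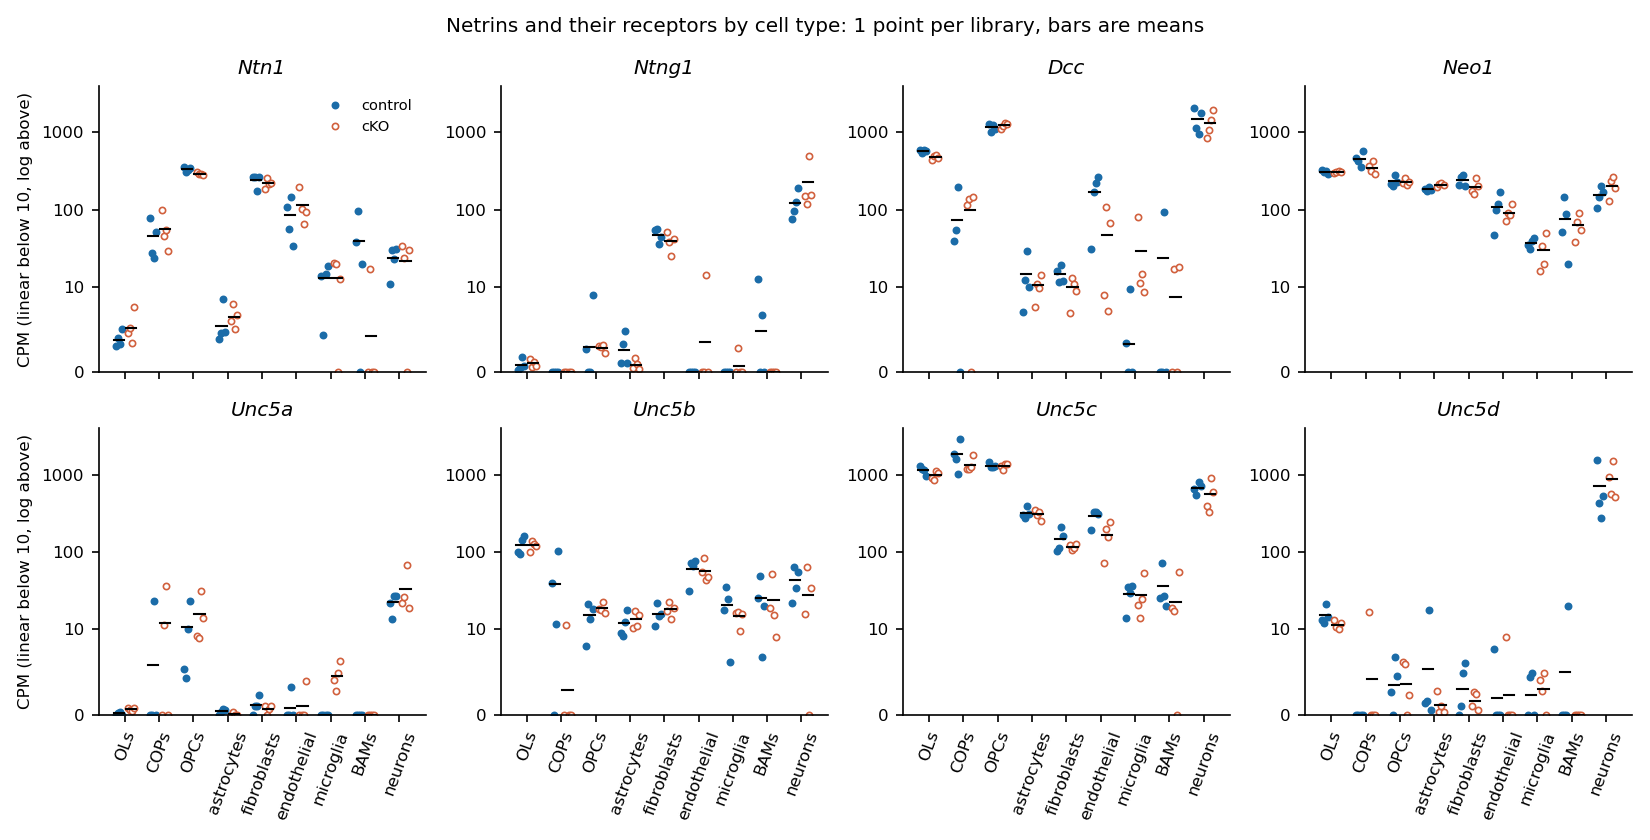
Levels of the 8 genes in each cell type in CPM (an axis that is linear below 10 and log above), 1 point per library, filled for controls and open for cKO, with bars at the means. *Ntn1* points lie highest in OPCs and fibroblasts, *Dcc* points in neurons and OPCs and then OLs, and *Unc5b* points in OLs.

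*Dcc* was highest in neurons, OPCs and OLs. Control neurons had 2092, 1131, 948 and 1768 CPM, OPCs 1304, 1017, 1261 and 1092 CPM, and OLs 590, 541, 585 and 582 CPM. Neurons and OPCs overlapped, and OLs lay below both without overlap. Endothelial cells had 171 ± 101 CPM (SD, n = 4), and there the median level of OL markers was 13.3 to 39.9% of that in OLs of the same library. BAMs, astrocytes and fibroblasts had 23.4 ± 46.7, 14.6 ± 10.0 and 14.5 ± 3.5 CPM, against 11.4, 9.04 and 7.95 CPM from free RNA, and microglia had 3.3 ± 4.58 CPM, below the 13.7 CPM that the same estimate gave them. All 14 control UMIs in BAMs came from control library 3.

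Against the mean of the other types *Dcc* was higher in neurons (log2 4.68 ± 0.20), OPCs (4.44 ± 0.21) and OLs (3.37 ± 0.20, edgeR adjusted p = 9.55e-19). All 3 were also called without control library 3 (6.32, 5.87 and 4.81). Without that library no *Dcc* UMI was left in BAMs, so a mean that includes BAMs has no lower bound and these values do not measure size. The call in endothelial cells (0.93 ± 0.35, adjusted p = 0.0463) was lost without the library block (adjusted p = 0.0553), with DESeq2 (0.105), after each nucleus was thinned to 1000 UMIs (0.729) and without control library 2 (0.195) or 4 (0.32). Its value was 0.63 to 2.22 over left-out libraries, the highest without control library 3. The call of lower *Dcc* in BAMs (-1.72, edgeR adjusted p = 0.0381) was lost after thinning and without control library 1, 2 or 4, and was at -9.88 without control library 3, when no *Dcc* UMI was left in BAMs and the fitted value is no bound. The calls of lower *Dcc* in astrocytes, fibroblasts and microglia had log2 differences of -3.14, -2.99 and -5.57. Without control library 3 they were not called, at -2.19, -1.78 and -5.37. That outcome was fixed by the BAM group without a *Dcc* UMI, which lets the fit meet any lower mean, so it says nothing on these calls. OLs were below OPCs by 0.94 ± 0.25 (log2 -0.94, edgeR adjusted p = 0.00178), which DESeq2 put at -1.16 with an adjusted p of 0.071.

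The levels did not pass smoothly from OPCs to OLs. COPs, which express *Gpr17*, *Bmp4* and *Enpp6* and stand between OPCs and myelinating OLs, were too few for the fit across all genes (4 to 19 nuclei per library), so their levels were compared over all 8 libraries by an exact sign-flip test on log2(CPM + 10), which was chosen after the levels were seen. *Dcc* went from 1202 ± 113 CPM in OPCs to 85.7 ± 72.7 CPM in COPs, lower in 8 of 8 libraries (mean log2 difference -4.31 ± 1.74 SD, n = 8, exact two-sided p = 0.00781, the smallest possible, adjusted p = 0.0179 over 16 tests). It was back at 526 ± 59 CPM in OLs, higher than in COPs in 8 of 8 libraries (log2 3.14 ± 1.80, n = 8, exact p = 0.00781, adjusted p = 0.0179). After thinning to 1000 UMIs a *Dcc* UMI was found in 7 of 90 COP nuclei (7.78%), in 63.1% of OPCs and in 32.7% of OLs, against 0.701% of microglia, which should lack the gene. The median depth was 4528 UMIs in COPs, 3176 in OPCs, 2616 in OLs and 1774 in microglia before thinning.

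Other members followed other courses through the same 3 stages. *Ntn1* fell at each step, from 312 ± 27 CPM in OPCs to 50.9 ± 26.7 CPM in COPs and 4.52 ± 1.48 CPM in OLs, in 8 of 8 libraries each (n = 8, exact p = 0.00781 for both). *Neo1* rose from 230 ± 25 to 404 ± 91 CPM between OPCs and COPs in 8 of 8 libraries (exact p = 0.00781, adjusted p = 0.0179) and was lower again in OLs, at 307 ± 13 CPM, in 7 of 8 (exact p = 0.0234, adjusted p = 0.0375). *Unc5b* rose at the later step, from 20.7 ± 36.1 CPM in COPs to 122 ± 23 CPM in OLs (8 of 8 libraries, exact p = 0.00781), its COP level resting on 6 UMIs. *Unc5c* was 1303 ± 91 CPM in OPCs, 1602 ± 610 CPM in COPs and 1067 ± 152 CPM in OLs, with the later step downwards in 7 of 8 libraries (exact p = 0.0156, adjusted p = 0.0278).

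**Figure D2:**
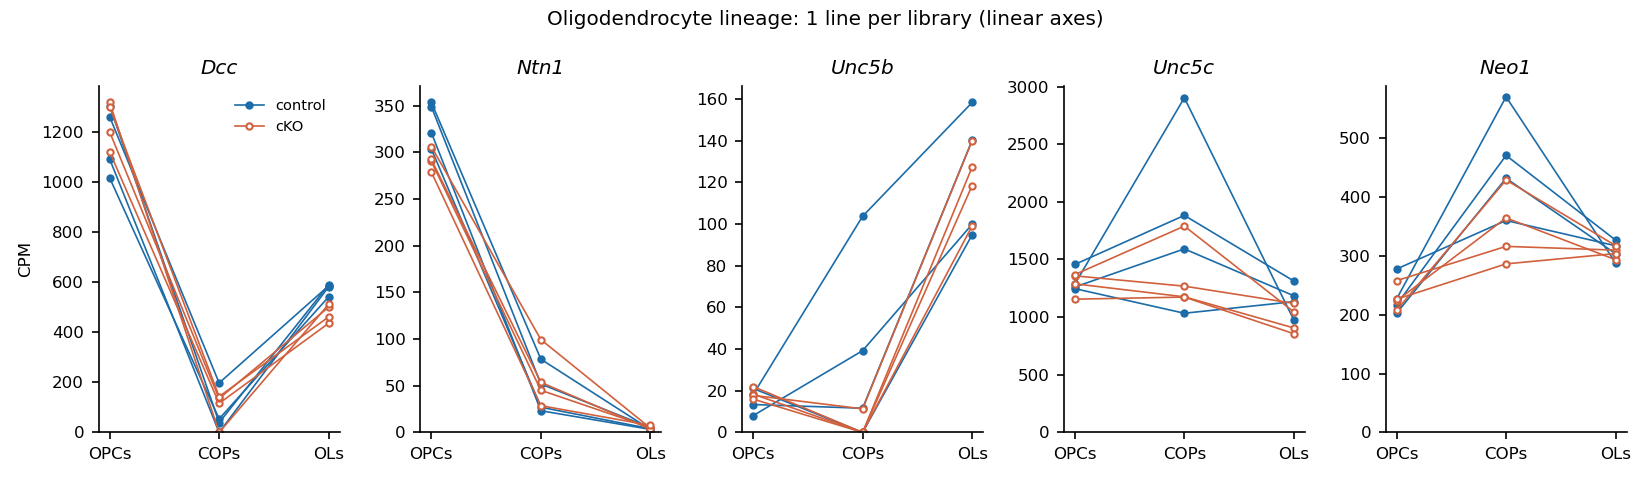
Levels of *Dcc*, *Ntn1*, *Unc5b*, *Unc5c* and *Neo1* in CPM (linear axes) in OPCs, COPs and OLs, 1 line per library over all 8 libraries, filled points for controls and open points for cKO. The *Dcc* lines dip in COPs in every library (mean 1202, 85.7 and 526 CPM) while the *Ntn1* lines fall at both steps.

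*Neo1* was the most evenly spread member. Control OLs had 327, 304, 317 and 288 CPM and lay above the other 7 types of the edgeR fit, while COPs, which were not in that fit, were higher than OLs in 7 of 8 libraries as given above. Fibroblasts (239 ± 40 CPM), OPCs (231 ± 33 CPM), astrocytes (184 ± 9 CPM), neurons (156 ± 41 CPM) and endothelial cells (108 ± 51 CPM) followed (SD, n = 4), with overlap between all neighbours but OPCs and astrocytes, and BAMs (75.5 ± 53.9 CPM) and microglia (36.7 ± 5.2 CPM, of which free RNA would give 23.8 CPM) were last. Against the mean over the remaining types the log2 differences were 1.65 ± 0.11 in OLs (edgeR adjusted p = 9.66e-18), 1.07 ± 0.15 in OPCs, 0.89 ± 0.12 in fibroblasts and -2.40 ± 0.24 in microglia. The excess in OLs over OPCs was 0.50 ± 0.16 (edgeR adjusted p = 0.0071) and fell short of a call with DESeq2, without the library block, after thinning (0.19), or without control library 1 or 2.

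Of the UNC5 receptors, *Unc5c* was high throughout the OL lineage. It was 1457, 1261, 1247 and 1287 CPM in control OPCs and 1313, 1185, 1134 and 975 CPM in control OLs, which overlapped (log2 difference -0.11 ± 0.16, edgeR adjusted p = 0.632). Neurons had 678 ± 109 CPM, astrocytes 318 ± 53 CPM, endothelial cells 290 ± 66 CPM and fibroblasts 146 ± 49 CPM (SD, n = 4). In these endothelial cells the median level of OL markers was 13.3 to 39.9% of that in OLs. The part of this in their *Unc5c* level was not tested. BAMs (36.1 ± 24.5 CPM) and microglia (28.6 ± 10.3 CPM) had about the 22.3 and 26.9 CPM that free RNA would give. Against the mean over the remaining types the log2 difference was 3.04 ± 0.13 in OPCs, 2.91 ± 0.12 in OLs, 1.77 ± 0.14 in neurons and -0.83 ± 0.17 in fibroblasts (edgeR adjusted p = 8.35e-24, 1.87e-24, 1.75e-14 and 5.48e-05).

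*Unc5b* marked mature OLs within the lineage. Control OLs had 99.8, 94.8, 140 and 158 CPM and OPCs 8.03, 21.1, 13.4 and 18.1 CPM, and the ranges were far apart (log2 difference 3.15 ± 0.30, edgeR adjusted p = 2.46e-12). Endothelial cells, in which *Unc5b* is known as a guidance receptor of vessels, had 60.6 ± 20.5 CPM, and neurons had 43.1 ± 19.0 CPM. The other types had 12.1 to 25 CPM, beside 8.34 to 14.6 CPM expected from free RNA. In control endothelial cells the median level of OL markers was 13.3 to 39.9% of that in OLs. The part of this in their *Unc5b* level was not tested. Empty droplets held 68.1 to 99.2 CPM of *Unc5b*, 0.445 to 0.78 times the OL level. *Unc5b* was higher in OLs by 2.78 ± 0.12 (edgeR adjusted p = 2.16e-23), and the calls of higher *Unc5b* in endothelial cells (1.19) and neurons (0.63) were lost after thinning (0.05 and 0.33), the former also without control library 3 and the latter without control library 2 or 4.

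*Unc5a* and *Unc5d* had their highest levels in the neurons of these libraries. *Unc5a* had 21.7, 13.3, 26.6 and 27.0 CPM in control neurons and 5.36, 4.22, 10.0 and 22.7 CPM in control OPCs, which overlapped, and at most 1.07 CPM on average in the other 6 types of the edgeR fit. In COPs its mean over all 8 libraries was 8.78 ± 13.8 CPM. *Unc5d* had 1568, 434, 278 and 535 CPM in control neurons, the widest spread of any member there, and 15 ± 4.0 CPM in OLs, where free RNA would give 0.832 CPM. It was higher in neurons by 7.54 ± 0.34 (edgeR adjusted p = 6.21e-23) and in OLs by 1.69 ± 0.61 (edgeR adjusted p = 0.0152). Over left-out libraries these were 7.10 to 8.21 and 1.62 to 2.34. The means behind them include control endothelial cells and BAMs, each with 1 *Unc5d* UMI, in control libraries 1 and 4. Without the library that holds this UMI the type has none, so the fitted values do not measure size. *Unc5d* was not called in OLs by DESeq2 (adjusted p = 0.11) or without control library 2 (edgeR adjusted p = 0.0597). In OLs the *Unc5d* UMIs were found in about 1 of 100 nuclei after thinning (1.00%).

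Within OLs, subclusters were grouped by their leading genes into *Grik1*, *Masp1* and *Il33* OLs and the remainder, and compared in the 4 control libraries as above. *Dcc* was lower in *Grik1* OLs, with 350, 307, 429 and 398 CPM, than in *Masp1* OLs, with 664, 621, 619 and 608 CPM, *Il33* OLs, with 770, 699, 654 and 662 CPM, and the remainder, with 617, 565, 613 and 649 CPM. *Grik1* OLs did not overlap with the others. Set against the mean over the remaining groups, the log2 difference was -0.83 ± 0.05 (edgeR adjusted p = 5.27e-30), while *Il33* OLs were higher by 0.40 ± 0.04 and *Masp1* OLs by 0.24 ± 0.05, both under the fold limit. *Unc5c* was also lowest in *Grik1* OLs (978 ± 111 CPM) and highest in *Il33* OLs (1265 ± 188 CPM), by less than the fold limit (log2 -0.31 ± 0.04 and 0.18 ± 0.03).

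*Unc5d* differed most between OL groups. In control libraries *Masp1* OLs had 41.7, 30.4, 103 and 14.0 CPM, *Grik1* OLs 13.1, 11.0, 17.5 and 20.7 CPM and *Il33* OLs 7.72, 2.10, 4.98 and 8.09 CPM. *Masp1* and *Grik1* OLs overlapped through control library 4. Set against the mean over the remaining groups, the log2 difference was 2.20 ± 0.21 in *Masp1* and -1.91 ± 0.24 in *Il33* OLs (edgeR adjusted p = 2.07e-15 and 1e-10). In *Masp1* OLs of control library 3, 35 of 64 UMIs came from the 5 nuclei with the most, and with at most 1 UMI counted per nucleus the 4 levels were 25.5, 21.7, 38.8 and 12.3 CPM. *Neo1* (268 to 320 CPM on average) and *Unc5b* (107 to 137 CPM) showed no called difference, and *Ntn1* was at 1.86 to 4.74 CPM on average in the 4 groups.

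Of 11722 genes tested, 10.5% were called in *Grik1*, 10.2% in *Il33*, 3.52% in *Masp1* and 1.75% in the remaining OLs. Of the 8 genes 5 were tested, and 3 calls resulted, lower *Dcc* in *Grik1* OLs, lower *Unc5d* in *Il33* OLs and higher *Unc5d* in *Masp1* OLs.

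**Figure D3:**
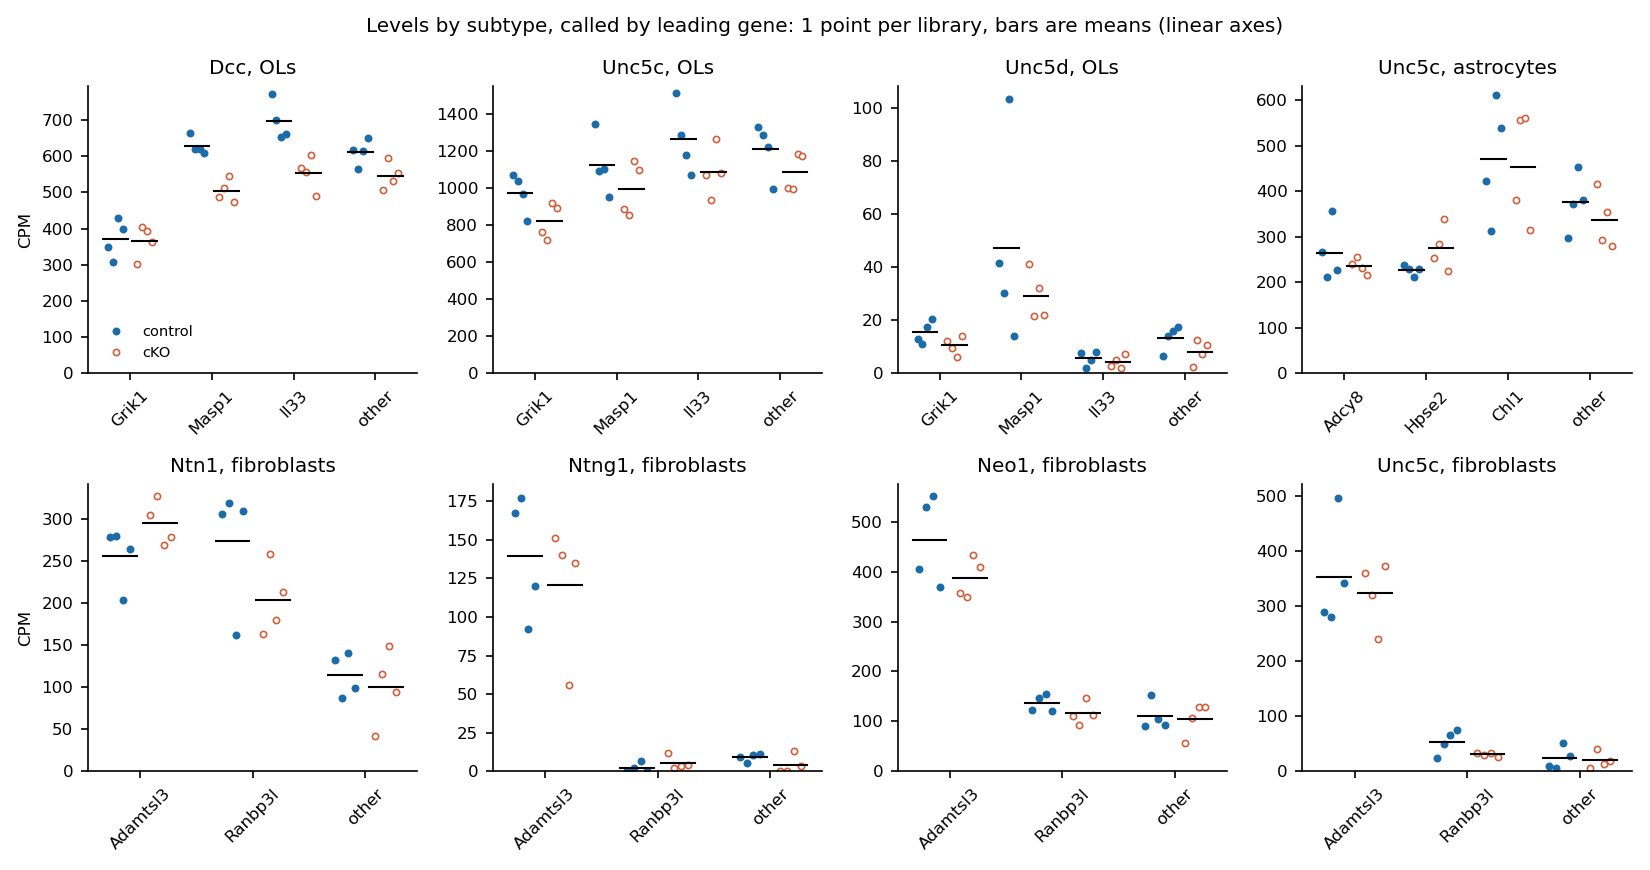
Levels in CPM (linear axes) in groups of OLs (*Dcc*, *Unc5c*, *Unc5d*), astrocytes (*Unc5c*) and fibroblasts (*Ntn1*, *Ntng1*, *Neo1*, *Unc5c*) named by leading gene, 1 point per library, filled for controls and open for cKO, with bars at the means. *Dcc* is lowest in *Grik1* OLs (371 ± 54 CPM in controls) and *Ntng1* is high only in *Adamtsl3* fibroblasts (139 ± 40 CPM; SD, n = 4).

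The fibroblast signal split by group. *Adamtsl3* and *Ranbp3l* fibroblasts, named for the gene that leads them, both carried *Ntn1*, at 279, 279, 204 and 264 CPM and at 307, 319, 162 and 310 CPM in control libraries, against 115 ± 26 CPM in the remaining fibroblasts. The first pair of groups overlapped, and the remainder was below both (log2 -1.25 ± 0.18, edgeR adjusted p = 2.59e-06). *Ntng1* was 167, 177, 92.2 and 120 CPM in *Adamtsl3* fibroblasts and 0, 2.06, 6.80 and 0 CPM in *Ranbp3l* fibroblasts (log2 4.68 ± 0.31 and -3.39 ± 0.63 against the other groups). *Unc5c* (352 ± 100 against 53.9 ± 22.5 CPM) and *Neo1* (464 ± 89 against 136 ± 17 CPM) were likewise higher in *Adamtsl3* than in *Ranbp3l* fibroblasts (log2 3.40 ± 0.18 and 1.99 ± 0.12 for *Adamtsl3* against the other groups, edgeR adjusted p = 1.38e-16 and 4.07e-15). Of the 6 members tested, 4 were higher and 1 lower in *Adamtsl3* fibroblasts, 1 higher and 4 lower in *Ranbp3l* fibroblasts and 1 higher and 3 lower in the remainder, where 26.6%, 16.9% and 18.7% of all 9829 genes were called (12.2% higher and 14.4% lower in the first group, 10.9% and 5.99% in the second and 10.6% and 8.09% in the remainder). These 14 calls were 10 to 12 with any 1 control library left out. *Unc5b* was at 8.83 to 30.9 CPM in these groups (7.37 to 13.2 CPM from free RNA), and its lower level in *Adamtsl3* fibroblasts (-1.15, edgeR adjusted p = 0.0497) was lost without the library block, with DESeq2 and without any 1 of the 4 control libraries (-1.55 to -0.82). Its higher level in the remainder was lost without control library 1, 3 or 4. *Dcc* was at 8.55 to 22.7 CPM (7.04 to 12.7 CPM from free RNA), and its lower level in *Ranbp3l* fibroblasts was lost with DESeq2 and without control library 1 or 2, the 2 left-out libraries for which a value was had. The lower *Unc5c* in *Ranbp3l* fibroblasts (-0.78, edgeR adjusted p = 0.032) was lost without the library block (adjusted p = 0.164), with DESeq2 (0.0877) and without control library 1 (0.0686) or 3 (log2 -0.44, adjusted p = 0.515). Without control library 3 *Ntng1* was at -5.42 there and at 5.89 in *Adamtsl3* fibroblasts.

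In astrocytes *Unc5c* and *Unc5b* were called between groups, and *Neo1* was not. Control astrocytes of the *Chl1* group had 424, 314, 612 and 539 CPM, those of the *Hpse2* group 238, 230, 212 and 229 CPM and those of the *Adcy8* group 266, 212, 357 and 227 CPM, so that the *Chl1* group overlapped the *Adcy8* but not the *Hpse2* group. Set against the mean over the remaining groups, the log2 difference was 0.72 ± 0.08 in the *Chl1* and -0.62 ± 0.10 in the *Hpse2* group (edgeR adjusted p = 9.78e-11 and 9.07e-07). *Unc5b* was called lower in the *Chl1* group and higher in the remainder, at 3.24 ± 2.65 and 18.6 ± 3.9 CPM, where free RNA would give 6.09 and 9.42 CPM, and DESeq2 called it in neither. The first of these edgeR values (-1.47) was lost without control library 3 or 4 and was -2.22 without control library 1. The second (1.12) was lost without the library block and without control library 2, 3 or 4. The share of all 10662 genes called was 8.28% in the *Chl1*, 5.68% in the *Hpse2*, 5.16% in the *Adcy8* group and 4.06% in the remainder, and 3 of the 8 genes were tested.

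The genotype comparison asked whether loss of *Piezo2* from the OL lineage went along with a change in these genes. In no cell type and no OL group was any of the 8 genes called between libraries labelled cKO and controls by edgeR with the filter on low counts, with 4 to 6 members tested in OLs, OPCs, astrocytes, fibroblasts, endothelial cells and neurons and no member past the filter in microglia and BAMs. Few genes were called at all, 0.0828% of 14497 in OLs, 0.322% in OPCs, 0.076% in microglia, 0.0166% in neurons and 0% in astrocytes, fibroblasts, endothelial cells and BAMs, and 0.017%, 0.135%, 0.0944% and 0.078% in *Grik1*, *Il33*, *Masp1* and remaining OLs. DESeq2 called none of the members either. In simulated data of this size 61% of changes of 0.75 and 94% of changes of 1.5 (log2) were recovered in OLs, with 16 unchanged genes called among 14500. The simulation changed 100 genes by each amount, while the real comparison in OLs called 12. Its adjusted p was therefore easier to reach, and these shares do not give the recovery of a single member in the real data.

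*Dcc* in OLs was 590, 541, 585 and 582 CPM in controls and 436, 500, 512 and 461 CPM in cKO libraries, and the groups did not overlap (575 ± 22 against 477 ± 35 CPM, SD, n = 4 each, exact permutation p = 0.0286, the smallest that 70 splits allow, adjusted p = 0.522 over 64 tests), as was so for 5.95% of the genes tested in OLs. The edgeR log2 fold change was -0.29 ± 0.09 (unadjusted p = 0.0101, adjusted p = 0.413) and lay between -0.34 and -0.24 when any 1 library was left out. By group it was -0.34 ± 0.11 in *Il33*, -0.34 ± 0.10 in *Masp1*, -0.18 ± 0.10 in the remaining and -0.04 ± 0.13 in *Grik1* OLs (edgeR adjusted p = 0.411, 0.476, 0.85 and 0.951), and the difference between groups was not tested. In the same order these groups held 3237, 1052, 1704 and 1955 of 7948 control OLs and 4619, 1827, 1337 and 3366 of 11149 cKO OLs. The part of this make-up in the *Dcc* difference over all OLs was not tested. The cKO libraries had 491 to 603 CPM in *Il33* and 473 to 544 CPM in *Masp1* OLs, below all controls in both groups, where 5.41% and 4.01% of the genes tested did not overlap. After thinning, 35.5 ± 1.6% of control and 30.8 ± 2.3% of cKO OLs had a *Dcc* UMI (n = 4 each, exact permutation p = 0.0286, adjusted p = 0.522), beside 0.25 and 1.02% of microglia. In OPCs *Dcc* was 1168 ± 136 and 1235 ± 92 CPM, which overlapped. Of the other pairs of member and cell type, groups were apart only for *Unc5a* in OLs and microglia, on 23 and 5 UMIs over all libraries. Of all genes with a UMI, 4.21% in OLs and 2.32% in microglia had groups that did not overlap.

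*Unc5c* in OLs was 1152 ± 140 CPM in control and 982 ± 122 CPM in cKO libraries (log2 -0.25 ± 0.13, edgeR adjusted p = 0.588) and *Unc5d* 15 ± 4.0 and 11.3 ± 1.3 CPM (-0.44 ± 0.18, adjusted p = 0.534), with overlapping ranges for both. *Neo1* (309 ± 17 and 306 ± 10 CPM) and *Unc5b* (123 ± 31 and 121 ± 17 CPM) differed by -0.03 ± 0.09 and -0.04 ± 0.17 (log2). In OPCs *Ntn1* was 332 ± 24 and 292 ± 11 CPM (-0.21 ± 0.15, edgeR adjusted p = 0.798) and in fibroblasts 243 ± 46 and 218 ± 28 CPM (-0.15 ± 0.15). The effect in OLs minus that in astrocytes was called for none of the 7 members tested and for 0.0721% of all genes, *Neo1* having -0.21 ± 0.08 and *Ntng1* 1.87 ± 0.73 (edgeR unadjusted p = 0.0189 and adjusted p = 0.757 for both). *Dcc* in endothelial cells was 171 ± 101 and 47.2 ± 48.1 CPM (-1.69 ± 0.57, edgeR unadjusted p = 0.00968, adjusted p = 0.899). With no filter on low counts it was called (-1.71, edgeR adjusted p = 0.000313), in a setting that also raised genotype calls over all genes in OLs and neurons. In endothelial cells 0% of 3444 genes were called with the filter, and the share without it is not given here. The unfiltered call of *Dcc* therefore cannot be set against all genes. The level of OL markers in those endothelial nuclei was 13.3 to 39.9% of that in OLs in control and 16.6 to 31.8% in cKO libraries. Its part in that difference was not tested.

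**Figure D4:**
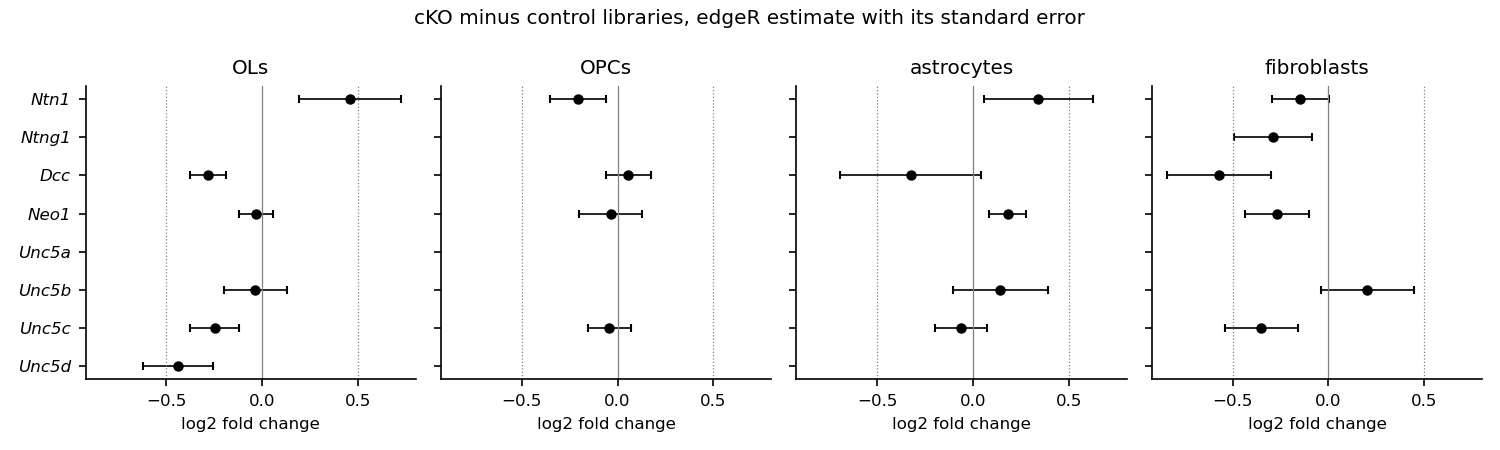
Log2 fold change of each member tested between cKO and control libraries in OLs, OPCs, astrocytes and fibroblasts. Points are edgeR estimates, bars the standard error derived from the F statistic, and dotted lines the fold limit of 0.5. *Dcc* in OLs is at -0.29 ± 0.09, and in fibroblasts its point is at -0.57 ± 0.27 with an adjusted p of 1.

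The study splits OLs by whether a nucleus had a *Piezo2* UMI, and the members were compared between the 2 classes. In cKO libraries a *Piezo2* UMI does not show an intact transcript, since the counts do not single out the deleted exons. In controls *Unc5d* was 16.9, 17.1, 29.1 and 18.3 CPM in *Piezo2*+ and 6.71, 3.54, 8.72 and 4.75 CPM in *Piezo2*- OLs, without overlap (log2 1.74 ± 0.29, edgeR adjusted p = 0.0155). It was the only member called of 6 tested, where 0.607% of all genes were. The call was lost without control library 1, 2 or 4 (edgeR adjusted p = 0.0688, 0.132 and 0.111), at log2 differences of 1.61 to 1.88. These fits had no replicate block, so the pairing of the classes within a library was not used. Fits with the block and a library left out were not made. In cKO libraries the levels were 14.4, 12.0, 10.4 and 14.7 CPM in *Piezo2*+ and 9.45, 6.88, 8.54 and 6.68 CPM in *Piezo2*- OLs, again without overlap, and *Unc5d* was not called (log2 0.74 ± 0.20, edgeR adjusted p = 0.207), where 0.382% of all genes were. With the replicate block, since both classes come from the same library, the values were 1.75 (edgeR adjusted p = 8.97e-17) and 0.76 (adjusted p = 0.00119). Nuclei with more UMIs are more likely to hold a *Piezo2* UMI, and the classes were set before thinning, so thinning does not remove this. Thinned to 1000 UMIs, the log2 differences were 1.5 (edgeR adjusted p = 0.0502) in controls and 1.11 (adjusted p = 0.182) in cKO libraries, and 1.51 (adjusted p = 0.000155) and 1.12 (adjusted p = 0.0125) with the block. *Piezo2* itself was higher in *Masp1* OLs (log2 1.28 ± 0.05) and lower in *Il33* OLs (-0.67 ± 0.05), as was *Unc5d*, and the part of these groups in the result was not tested. *Dcc* differed by 0.21 ± 0.09 in controls (602 ± 32 against 527 ± 18 CPM) and 0.26 ± 0.09 in cKO libraries (500 ± 35 against 421 ± 39 CPM), with no call.

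*Dcc* and *Unc5c* were found together in single OLs about as often as their separate shares give. After thinning, 14.0 to 24.8% of OLs per library held UMIs of both, 0.935 to 1.07 times the product of the separate shares over the 8 libraries.

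A list of 45 genes of the netrin pathway, the 8 members included, puts these values in context. *Dscam*, a netrin receptor that acts in place of or with DCC, was higher in OPCs by 7.75 ± 0.15, *Lrrc4c*, the netrin-G1 ligand, by 5.52 ± 0.13, *Adgrl3*, a latrophilin that binds FLRT and UNC5 proteins, by 3.72 ± 0.16, and *Ntn4*, encoding a basement membrane netrin, by 3.56 ± 0.47 (log2 against the mean of the other types). OLs had higher *Dscaml1* (4.30 ± 0.15) and *Pak1*, a kinase downstream of Rac (3.01 ± 0.11), and lower *Trio*, an exchange factor for Rac (-5.08 ± 0.19), and *Dapk1*, a death-associated kinase that binds UNC5B (-4.65 ± 0.45). In fibroblasts *Flrt2*, a ligand of UNC5 receptors, was higher by 4.52 ± 0.12 and *Adgrl2* by 3.22 ± 0.14, and in endothelial cells *Ablim1* (3.51 ± 0.15) and *Ntn4* (3.35 ± 0.54).

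Of the 40 listed genes tested, 17 were higher and 13 lower in OLs (median log2 0.07, as over all genes at 0.07), where 25% of all genes were higher and 21.5% lower. In OPCs 21 were higher and 6 lower (median 1.02, all genes -0.02), against 20.6% and 12% of all genes. In neurons the counts were 22 and 5 (0.75 and 0.05), against 25.8% and 17.9%. In astrocytes the counts were 15 and 9 (0.16 and 0.03), against 26% and 15.8% of all genes. In fibroblasts they were 14 and 13 (0.18 and 0.09), against 24.3% and 15.1%. In endothelial cells they were 14 and 4 (0.28 and 0.02), against 17.3% and 6.35%. In microglia 6 were higher and 24 lower (-1.49 and -0.15), against 18% and 20% of all genes. BAMs had 3 and 18 (-1.35 and -0.36), against 13.2% and 17.2%. Among OL groups *Il33* OLs had higher *Mcam*, an adhesion molecule that binds netrin-1 (1.54 ± 0.10), and *Adgrl3* (1.35 ± 0.08) and lower *Rgmb*, a neogenin ligand (-1.26 ± 0.12), while *Grik1* OLs had lower *Mcam* (-1.80 ± 0.15) and *Adgrl3* (-1.10 ± 0.12). None of the listed genes was called between genotypes in any cell type or OL group tested (39 genes in OLs, median log2 -0.04, all genes 0.02).

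The genes with the most similar profiles over 76 sums of cell type and library, which share libraries and cell types, were *Pcdh15* for *Dcc* (Pearson's r = 0.873 of log2(CPM + 1)), *Cadm2* for *Unc5c* (0.864), *Gjb1*, the connexin of OLs, for *Unc5b* (0.774), *Sh3d19* for *Neo1* (0.883), *Tnfrsf19* for *Ntn1* (0.772), *Cpne4* for *Ntng1* (0.836), *4933413L06Rik* for *Unc5d* (0.894) and *Tafa1* for *Unc5a* (0.87). Among the members, the closest pair was *Unc5c* and *Dcc* (0.778). These correlations are descriptions across cell types, and were not tested.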

How the data were processed

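The 8 members and the lists were chosen with earlier results of these data known. The authors aligned reads to GRCm39 with Cell Ranger 7.0.0 (both named in the submitters' processing notes) and deposited UMI counts per gene and barcode, not normalized, with barcodes of empty droplets included. Nuclei were therefore called here, from barcodes above an order-of-magnitude threshold or different from the ambient profile (at least 500 UMIs, false discovery rate 0.01). Barcodes with under 200 genes, over 5% mitochondrial UMIs, or values beyond 5 (mitochondrial share, 3) median absolute deviations were removed, as were the barcodes with the highest Scrublet scores (scanpy 1.11.5), at 0.8% per 1000 nuclei. Their number need not be that of the study. Libraries held 39628926 to 56541132 UMIs in all, and any pair shared 1 to 10 barcodes among called nuclei. Nuclei were clustered without the members or the pathway list (resolution 3, 42 clusters) and named from markers. Mixed (2243 nuclei) and unnamed (1177) clusters were left out. OLs, fibroblasts and astrocytes were subclustered at resolution 1.

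Sums of counts were formed for each cell type of each library (at least 10 nuclei and 1000 counts) and tested with edgeR 4.0.16 (quasi-likelihood, TMM, filter on low counts). Sums of 1 library share its nerves, so library was a block between cell types, as it was in the alternative for *Piezo2*+ and *Piezo2*- OLs. Deviations of the 2 classes from their group means correlated within each library (r of 0.524 to 0.766), each library being its own best match. Genotypes shared no replicate number. DESeq2 1.42.0, no filter, thinning to 1000 UMIs, subtraction of the ambient profile, deeper nuclei only and leaving out each library were tried. The fit was tested on simulated counts. Exact tests were two-sided over libraries. The named genes are the members, the called genes of the pathway list with the largest changes (up to 12 per comparison, some of them given here) and the 3 genes most like each member, of which the first is given. Depth limits precision through counting error, and shares cover counting error only. Sequences are from RefSeq tables on GRCm38.p6 and coordinates of genes from the GENCODE annotation on GRCm39.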

Additional observations from a re-analysis of the deposited data

Results flagged for a closer look

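In groups of 4 libraries a value was singled out where its gap to the nearest other library divided by the whole range exceeded Dixon's 95% critical value. Of 141 groups, 11 met this, and chance alone gives about 5% of groups, so single cases below carry little weight. No explanation was tested.

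Control library 3, which held the most pituitary transcripts, gave 4 of the 11. Its *Ntn1* was low in fibroblasts, at 174 CPM against 263 to 268 CPM in the other controls, and in *Ranbp3l* fibroblasts, at 162 CPM against 307 to 319 CPM. Its *Dcc* was high in *Adcy8* astrocytes, at 50.3 CPM against 8.87 to 14.0 CPM, and in BAMs, at 93.5 CPM against 0 in the others. Control library 2 had low *Dcc* in OLs, at 541 CPM against 582 to 590 CPM, and high *Unc5c* in BAMs, at 72.6 CPM against 19.8 to 26.7 CPM. Control library 1 had low *Unc5c* in endothelial cells, at 192 CPM against 314 to 330 CPM. The median level of OL markers there was 13.3% of that in OLs, against 31.0 to 39.9% in the other controls.

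Among cKO libraries, neurons of library 12 had high *Ntng1*, at 501 CPM against 117 to 152 CPM, and high *Unc5a*, at 66.8 CPM against 18.6 to 26.1 CPM. *Hpse2* astrocytes of the same library had high *Neo1*, at 268 CPM against 216 to 220 CPM. Microglia of library 10 had high *Dcc*, at 80.8 CPM against 9.32 to 14.7 CPM.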

How the results depend on the processing

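Of the member values followed across alternatives (those called as planned, and members in OLs between genotypes and *Piezo2* classes), 318 kept their direction and side of the threshold under settings that keep all libraries, 21 lost and 2 gained a call and 2 reversed, and over single left-out libraries 400 held, 40 lost their call and 6 reversed. Without control library 3, the loss of the calls of lower *Dcc* in astrocytes, fibroblasts and microglia was fixed by BAMs without a *Dcc* UMI. The cause of the other changes was not tested unless named. Calls between astrocyte groups went from 4 to 2 with DESeq2 and were 2 to 4 over left-out libraries (2 without control library 3 or 4). Genotype calls within cell types went from 0 to 1 with no filter on low counts (*Dcc*, endothelial cells, without the share of all genes beside it). Members not called as planned were also called in other settings, namely *Ntng1* in OLs (log2 -2.76) and in microglia with DESeq2 (a fitted value over a group with no UMI, which is no bound), with no filter *Unc5a* in OPCs (4.15) and neurons (5.35), *Dcc* in *Adamtsl3* fibroblasts (0.97) and *Adcy8* astrocytes (1.14) and *Unc5d* in the remaining astrocytes (2.54), and *Unc5d* in astrocytes (-2.60) without control library 3. Between *Piezo2*+ and *Piezo2*- OLs without the replicate block, control calls went from 1 to 0 after thinning and were 0 to 1 over left-out libraries (0 without control library 1, 2 or 4). With the block, cKO calls went from 0 to 1, thinned or not. Reversals were of uncalled values near 0. On the log2 scale, genotype differences over left-out libraries were -0.074 to 0.0050 for *Neo1* and -0.15 to 0.093 for *Unc5b* in OLs and -0.13 to 0.046 for *Dcc* in *Grik1* OLs, and *Unc5c* between *Piezo2*+ and *Piezo2*- control OLs was -0.017 thinned and -0.014 thinned with the block.

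Counts over all genes moved more. Thinning, which leaves fewer UMIs, lowered OL calls against other types from 4984 to 2654 and neuron calls from 4685 to 1848, and BAM calls were 1899 in place of 3258 without control library 3. Genotype calls in OLs were 12 by edgeR, 59 by DESeq2 and 45 with no filter, and in neurons 1, 6 and 94. *Piezo2* class calls were 75 in control and 50 in cKO libraries, 441 and 257 with the block, and as few as 1 and 3 with a library left out and no block. Astrocyte group calls without the block were 528 in place of 883 for *Chl1*.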

Other observations

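A cluster of 226 nuclei that met no marker list, led by *Sfta3-ps*, *Col23a1*, *Fat3* and *Dnah12*, held *Unc5d* at 61.6 CPM (52 UMIs), *Neo1* at 161 CPM and *Unc5c* at 127 CPM, with *Ntn1* at 1.18 CPM (1 UMI). A cluster of mixed nuclei led by *Nxph1*, *Vcan* and *Tnr* (460 nuclei, median 7132 UMIs) held *Dcc* at 681 CPM and *Ntn1* at 141 CPM. These values are pooled over libraries and enter no comparison.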
